A study of Mus musculus with 6 samples.

Results

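The 8 genes described here build adherens and gap junctions of ovarian follicles, and were measured in newborn mouse ovaries with and without the splicing factor gene Bcas2 in their oocytes. The genes were the cadherins Cdh1, Cdh2 and Cdh3, the connexins Gja1, Gja4 and Gjc1, the adherens junction linker Ctnna1 and the junction scaffold Tjp1. They were found by symbol, each as 1 row among the 47122 gene models of the deposited table, and all 8 passed the filter on low values. RNA sequencing of whole ovaries at 1 day post partum (1 dpp) gave 3 libraries labelled BCAS2 cKO, from ovaries with Bcas2 knocked out in oocytes, and 3 libraries labelled WT. The sources used here name neither the driver of the deletion nor the strain, nor do they say whether ovaries were pooled. If the 3 libraries of a group are not separate animals, the p-values measure technical spread only.

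In a follicle the oocyte and the somatic cells around it are held together by cadherins, whose intracellular ends bind catenins and through them the actin skeleton. They are coupled by gap junctions, channels made of connexins that pass ions, nucleotides and metabolites between granulosa cells and into the oocyte. At about the time of birth in mice, germ cell nests break up and single oocytes become enclosed by pregranulosa cells as primordial follicles.

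Bcas2 encodes a subunit of the spliceosome. Reads recovered from the deposited values numbered 16800421 to 18382568 in cKO libraries and 17252045 to 19565275 in WT libraries. The values are FPKM, that is fragments scaled to gene length in kilobases and to library depth, so levels of different genes can be set side by side. Bcas2 (chromosome 3, 103078971 to 103086479, plus strand, GRCm39) stood at 18.9, 21.9 and 18.3 FPKM in cKO and at 54.5, 37.5 and 35.7 FPKM in WT, without overlap and in the direction of the labels (log2 fold change −1.05, adjusted p = 0.955 in limma, exact two-sided permutation p = 0.1, the smallest that 3 against 3 allows). A sample label also speaks of granulosa cells. The oocyte marker Ddx4 was at 31.7 to 34.1 FPKM in cKO and 29.3 to 45.3 FPKM in WT. The surface epithelium marker Upk3b was at 100.2 to 129.4 FPKM in cKO and 53.4 to 163.1 FPKM in WT. The endothelial marker Pecam1 was at 6.72 to 7.99 FPKM in cKO and 6.62 to 24.5 FPKM in WT. Markers of oocytes, surface epithelium and endothelium were thus all present, as in a whole ovary. In such bulk samples fewer cells of a type and less RNA per cell cannot be told apart.

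Some libraries stood apart. WT replicate 1 had the highest summed level of endothelial markers, at 324.6 FPKM, against 112.2 to 126.8 FPKM in cKO and 128.7 and 86.5 FPKM in WT replicates 2 and 3. It also had the highest stroma sum (1664 FPKM, against 494.3 to 633.4 FPKM in cKO and 764.3 and 477.7 FPKM in the other two WT libraries) and the lowest surface epithelium sum (336.8 FPKM, against 660.8 to 791.7 FPKM in cKO and 823.9 and 688.8 FPKM in the other two). WT replicate 3 had the highest oocyte marker sum, at 1661 FPKM, and cKO replicate 2 had an erythroid sum of 13690 FPKM, against 405.1 to 1233 FPKM in the other 5 libraries. Of the marker lists, the tubal and mesonephric epithelium list was the one whose sums did not overlap, at 12.97 to 15.6 FPKM in cKO and 7.73 to 8.08 FPKM in WT over 9 genes. Pregranulosa sums overlapped (816.2 to 958.5 FPKM in cKO and 753.8 to 997.1 FPKM in WT), as did macrophage sums (20.7 to 27.1 FPKM in cKO and 22.1 to 30.9 FPKM in WT) and Schwann and neural sums (8.82 to 12.4 FPKM in cKO and 9.31 to 20.4 FPKM in WT). No listed marker was at 0 in all libraries, although some stayed below 1 FPKM in every one: Bmp15 of the oocyte list, Pax2 and Lhx1 of the tubal and mesonephric list, Tagln and Actg2 of the pericyte and muscle list, Ptprc and Fcgr1 of the macrophage list, and Sox10, S100b and Foxd3 of the Schwann and neural list. The part of these differences in the results that follow was not tested. The fold changes of the 8 genes and the 3 ratios between them were also computed without each library in turn.

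Upstream sequence was found in RefSeq (build GRCm38.p6) for 3 of the 8 genes, Gja1, Gja4 and Tjp1. These are the main connexin of granulosa cells, the connexin of the oocyte's side of the gap junction and the scaffold that binds the connexin encoded by Gja1. They also enter the Gja1 to Gja4 and Gja1 to Tjp1 ratios below. Each run is the 250 bases before a start annotated in that build, 5′ to 3′ on the gene's strand. Whether that start is the 5′ end of the GRCm39 gene model given below was not tested, and a gene can have further starts. Capitals mark matches to the AP-1 motif TGAGTCA or the GC box GGGCGG on either strand. Gja1 lies on the plus strand (chr10:56377050-56377299), Gja4 on the minus strand (chr4:127314040-127314289) and Tjp1 on the minus strand (chr7:65371245-65371494).
Gja1: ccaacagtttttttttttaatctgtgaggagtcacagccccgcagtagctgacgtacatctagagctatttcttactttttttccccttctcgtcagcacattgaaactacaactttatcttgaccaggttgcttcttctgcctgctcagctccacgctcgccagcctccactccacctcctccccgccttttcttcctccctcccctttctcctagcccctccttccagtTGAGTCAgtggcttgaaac
Gja4: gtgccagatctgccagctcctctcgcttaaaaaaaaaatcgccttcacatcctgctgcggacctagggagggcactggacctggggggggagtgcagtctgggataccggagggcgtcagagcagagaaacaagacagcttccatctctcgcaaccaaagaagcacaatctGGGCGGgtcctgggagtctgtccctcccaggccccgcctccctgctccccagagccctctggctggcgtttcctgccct
Tjp1: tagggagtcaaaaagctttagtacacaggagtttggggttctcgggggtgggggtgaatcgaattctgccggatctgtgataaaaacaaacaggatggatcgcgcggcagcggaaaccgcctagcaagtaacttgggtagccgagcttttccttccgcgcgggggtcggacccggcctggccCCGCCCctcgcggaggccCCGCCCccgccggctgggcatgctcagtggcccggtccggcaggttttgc
The Gja1 run held 1 AP-1 match, a motif found in 4.46% of the 32851 promoter runs of that length, and no GC box. The Gja4 run held 1 GC box and the Tjp1 run 2, where 32.7% of all runs held at least 1. The E-box CAGCTG (13% of runs) and the TATA box TATAAA (12.4% of runs), searched on both strands, were in none of these 3 runs. The GC content was 50% for Gja1, 61.2% for Gja4 and 63.2% for Tjp1, with a median of 52.4% over all runs. CpG pairs numbered 6, 9 and 22 in the same order, with a median of 6. These matches are descriptions of letters, not of bound sites.

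Over all 6 libraries the level per length was highest for Ctnna1, with a mean of 51.5 FPKM and a range of 44.8 to 61.9 FPKM. Gja1 followed at 35.8 FPKM (26.2 to 46.1) and Tjp1 at 32.7 FPKM (25.9 to 42.1). Gja4 was at 15.2 FPKM (11.8 to 18.1), Gjc1 at 11.2 FPKM (9.67 to 14.4), Cdh3 at 10.5 FPKM (9.11 to 12.8), Cdh2 at 10.1 FPKM (8.60 to 11.5) and Cdh1 at 6.60 FPKM (4.96 to 8.53). The order was clear of the spread between libraries at 2 steps, from Tjp1 to Gja4 and from Cdh2 to Cdh1, where ranges did not overlap. Ctnna1 exceeded Gja1 within each of the 6 libraries, although their ranges met. Gja1 and Tjp1 differed by less than their spread, with Gja1 above in 5 of 6 libraries, as did Gja4 and Gjc1 (5 of 6), Gjc1 and Cdh3 (3 of 6) and Cdh3 and Cdh2 (4 of 6). Among all 14589 tested genes, 91.7% had a lower mean than Ctnna1 and 42.4% a lower mean than Cdh1.

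None of the 8 genes passed the test between cKO and WT ovaries, and each had groups that overlapped. At an adjusted p under 0.05 (limma on log2(FPKM + 1), Benjamini-Hochberg over all genes tested) 0 of the 8 were called, against 0 of 14589 genes in all, or 0%. At an unadjusted p under 0.05 in limma there were 0 of the 8, against 443 genes or 3.04% of those tested. Non-overlapping groups were found for 0 of the 8 and for 7.88% of all tested genes. The log2 fold change was below 0 for 7 of the 8, where 51.3% of all tested genes had one below 0, and its median was −0.10, against −0.01 over all genes tested. That count was 4 of 8 without WT replicate 1, with a median of −0.03, and the median was −0.19 without WT replicate 3. Each gene had between 336 and 6354 recovered reads per library, a counting error of at most 5.46%. The spread between libraries of a group was larger than that for all 8 genes in both groups, and it was wider in WT than in cKO for 7 of them.

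**Figure D1:**
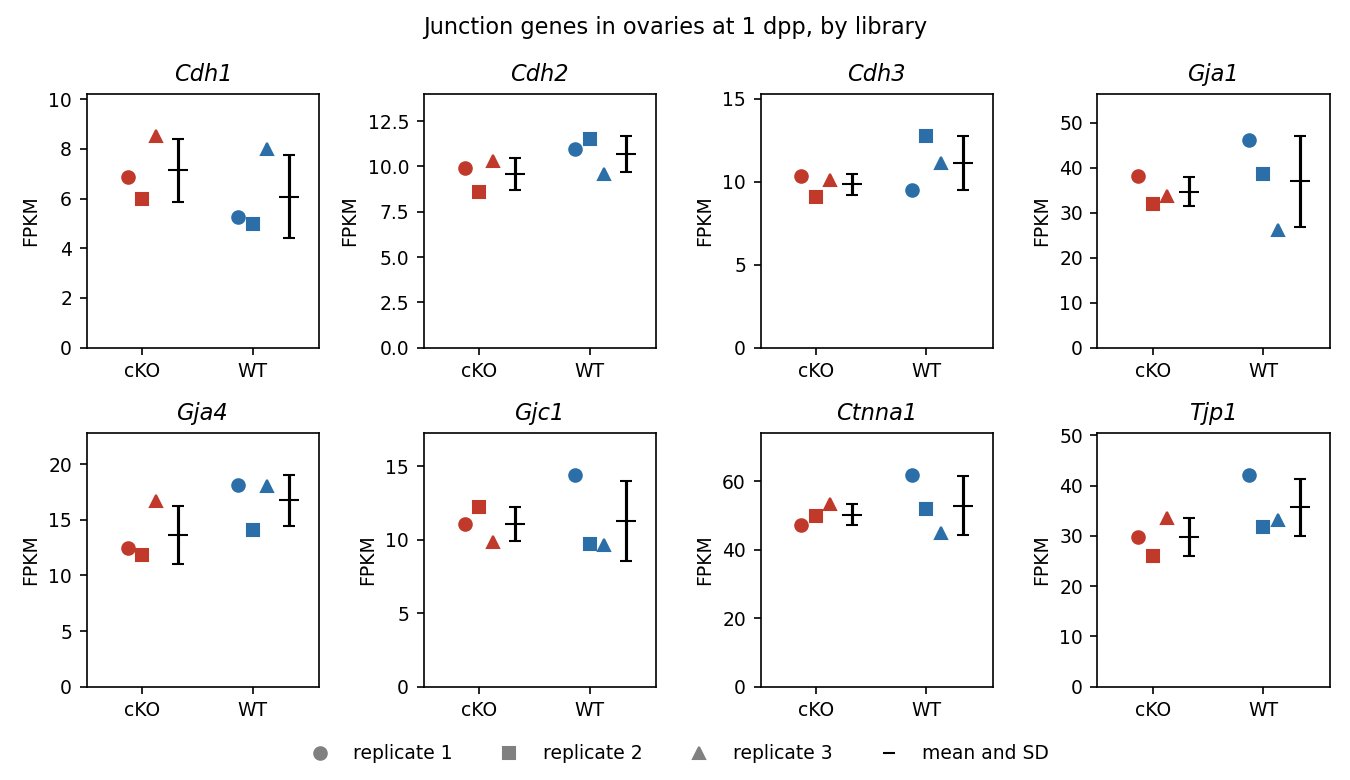
FPKM (vertical axes, from 0) of the 8 junction genes in the 3 cKO libraries (red, left) and the 3 WT libraries (blue, right), with marker shapes for the replicate number and bars for the mean and SD. The groups overlap in every panel, and WT replicate 1 is the highest library for 5 of the 8 genes.

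Among the cadherins, Cdh1 had the higher mean in cKO, and Cdh2 and Cdh3 had the lower. Cdh1 encodes E-cadherin, the cadherin of epithelia, which mouse germ cells carry as well. The gene is on chromosome 8 (107329982 to 107396879, plus strand, GRCm39). Its level was 6.87, 6.01 and 8.53 FPKM in cKO replicates 1 to 3 and 5.26, 4.96 and 7.99 FPKM in WT replicates 1 to 3. Values were highest in cKO replicate 3 and WT replicate 3, and WT replicate 3 lay above cKO replicates 1 and 2. Group means were 7.13 ± 1.28 FPKM in cKO and 6.07 ± 1.67 FPKM in WT (SD, n = 3 each), and the log2 fold change was 0.22 (SE 0.20, 95% interval −0.25 to 0.68, adjusted p = 0.955 in limma). Without WT replicate 3 the log2 fold change was 0.40 (unadjusted p = 0.0463 and adjusted p = 0.590 in limma), and over the other libraries left out in turn it was 0.10 to 0.32. Markers of tubal and mesonephric epithelium were also higher in cKO (sums above), and surface epithelium sums, lowest in WT replicate 1, overlapped. Oocyte marker sums overlapped as well, lowest in WT replicate 1 (1088 FPKM) and highest in WT replicate 3 (1661 FPKM). The part of these 3 marker lists in the Cdh1 values was not tested.

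Cdh2 encodes N-cadherin, which joins granulosa cells to each other and to the oocyte. It lies on chromosome 18 (16721934 to 16942303, minus strand). It was measured at 9.89, 8.60 and 10.3 FPKM in cKO and at 10.99, 11.5 and 9.58 FPKM in WT. WT replicates 1 and 2 were above all cKO libraries and WT replicate 3 was within their range. The log2 fold change was −0.14 (SE 0.12, 95% interval −0.41 to 0.13, adjusted p = 0.955 in limma), and it stayed below 0 under every alternative run, between −0.23 and −0.07.

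Cdh3 encodes P-cadherin, a relative of E-cadherin known from placenta and epidermis. It lies near Cdh1 on chromosome 8 (107237484 to 107283543, plus strand), with a gap of 46438 bases that holds 3 other gene models of the table. Its level was 10.3, 9.11 and 10.1 FPKM in cKO and 9.51, 12.8 and 11.1 FPKM in WT. Here WT replicate 1 was low, within the cKO range, and the other two WT libraries were above it. The log2 fold change was −0.16 (SE 0.13, 95% interval −0.46 to 0.14, adjusted p = 0.955 in limma) and it ranged between −0.26 without WT replicate 1 and −0.06 without WT replicate 2. Cdh1 and Cdh3 had means that differed between the groups in opposite directions, neither beyond the spread between libraries.

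All 3 connexin means were lower in cKO, none beyond the spread between libraries, and the difference was widest for Gja4. Gja4 encodes the connexin that oocytes contribute to the oocyte-granulosa gap junction, and arterial endothelium expresses it too. The gene is on chromosome 4 (127205213 to 127207832, minus strand, GRCm39). It was at 12.5, 11.8 and 16.7 FPKM in cKO and at 18.1, 14.1 and 18 FPKM in WT. All WT libraries were above cKO replicates 1 and 2, but cKO replicate 3 was above WT replicate 2. Means were 13.7 ± 2.62 FPKM in cKO and 16.7 ± 2.29 FPKM in WT (SD, n = 3 each), with the lowest log2 fold change of the 8 genes at −0.28 (SE 0.16, 95% interval −0.66 to 0.10, adjusted p = 0.955 in limma). Without cKO replicate 3 it was −0.42 (unadjusted p = 0.0274 and adjusted p = 0.877 in limma). It was −0.22 without WT replicate 1, the library with high endothelial markers, −0.23 without WT replicate 3, the library with high oocyte markers, −0.23 without cKO replicate 1, −0.20 without cKO replicate 2 and −0.40 without WT replicate 2. The sum of 14 oocyte markers overlapped between the groups, at 1392, 1606 and 1237 FPKM in cKO and 1088, 1178 and 1661 FPKM in WT.

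Gja1 encodes the main gap junction protein between granulosa cells. It lies on chromosome 10 (56253297 to 56266519, plus strand). Its level was 38.2, 32.0 and 33.7 FPKM in cKO and 46.1, 38.7 and 26.2 FPKM in WT. The 3 cKO libraries fell inside the WT range, whose highest and lowest libraries differed 1.76-fold. The log2 fold change was −0.06 (SE 0.20, 95% interval −0.54 to 0.42, adjusted p = 0.983 in limma). It turned to 0.11 without WT replicate 1 and was −0.28 without WT replicate 3, so single WT libraries set its sign and size.

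Gjc1 encodes a connexin of vascular and cardiac muscle that granulosa cells of several mammals also express. It lies on chromosome 11 (102690303 to 102710512, minus strand). It was at 11.1, 12.2 and 9.87 FPKM in cKO and at 14.4, 9.72 and 9.67 FPKM in WT. WT replicate 1 was above all other libraries and the other two WT libraries were below all cKO libraries. The log2 fold change was −0.01 (SE 0.17, 95% interval −0.41 to 0.40, adjusted p = 0.997 in limma) and 0.17 without WT replicate 1. Pericyte and muscle markers were highest in WT replicate 1 as well, as were endothelial and stroma markers (sums above). The pericyte and muscle sum was 101.5 FPKM there, and 29.4 and 21.8 FPKM in WT replicates 2 and 3. In cKO replicates 1 to 3 it was 33.21, 25.82 and 31.55 FPKM. Of the cKO libraries, replicate 2 thus had the lowest sum but the highest Gjc1. The part of these markers in the Gjc1 values was not tested.

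**Figure D2:**
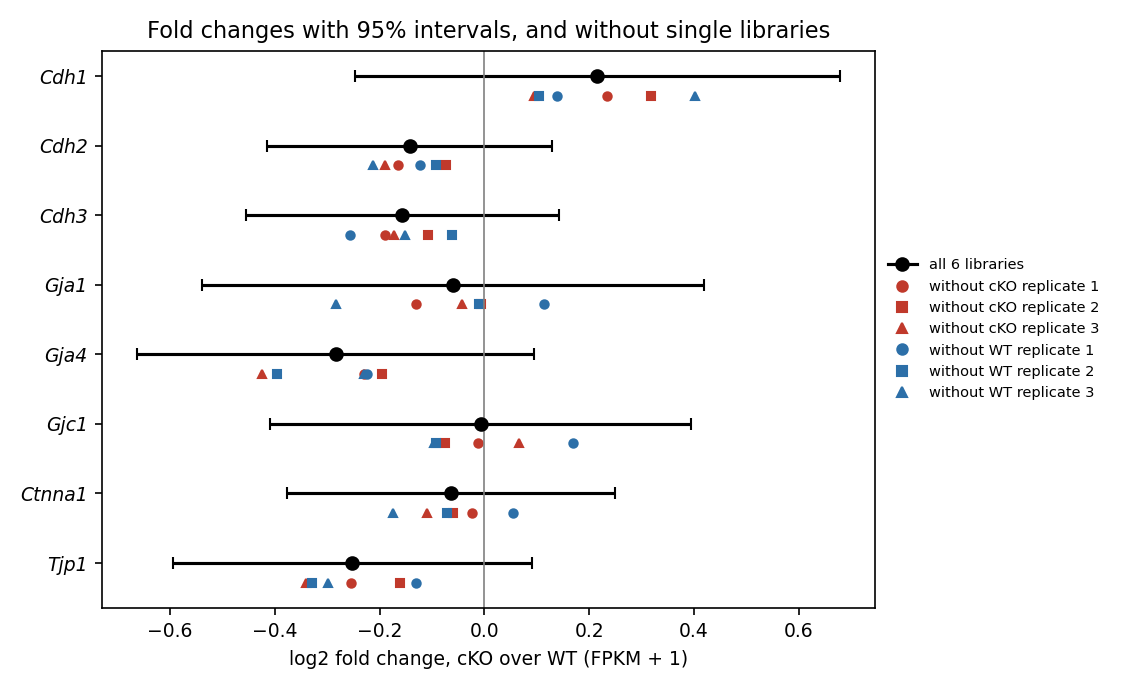
Log2 fold change of cKO over WT on the FPKM + 1 scale (horizontal axis) for each gene, with all 6 libraries and its 95% interval (black) and, below it, with single libraries left out (coloured symbols). Every interval spans 0, and the symbols of Gja1, Gjc1 and Ctnna1 lie on both sides of 0.

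Of the intracellular partners, Ctnna1 had the highest level of the 8 genes and Tjp1 came after Gja1. Ctnna1 encodes alpha-catenin, which links the cadherin and beta-catenin complex to actin. It lies on chromosome 18 (35251955 to 35387829, plus strand) and 2 models on the opposite strand overlap it, Gm46617 at 1.27 ± 0.0656 FPKM in cKO and 0.909 ± 0.167 FPKM in WT and Lrrtm2 at 0.0370 ± 0.00735 FPKM in cKO and 0.0697 ± 0.0710 FPKM in WT (SD, n = 3 each). The level of Ctnna1 was 47.3, 49.8 and 53.4 FPKM in cKO and 61.9, 51.9 and 44.8 FPKM in WT, so the cKO libraries lay inside the WT range. The log2 fold change was −0.06 (SE 0.13, 95% interval −0.38 to 0.25, adjusted p = 0.974 in limma), and it turned to 0.05 without WT replicate 1 and was −0.17 without WT replicate 3.

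Tjp1 encodes a scaffold of tight junctions that also binds connexins and catenins. The gene is on chromosome 7 (64945913 to 65177629, minus strand). It was at 29.7, 25.9 and 33.6 FPKM in cKO and at 42.1, 31.7 and 33.2 FPKM in WT. WT replicate 1 was the highest library and cKO replicate 2 the lowest, while cKO replicate 3 lay above WT replicates 2 and 3. Means were 29.7 ± 3.82 FPKM in cKO and 35.7 ± 5.63 FPKM in WT (SD, n = 3 each), and the log2 fold change was −0.25 (SE 0.15, 95% interval −0.60 to 0.09, adjusted p = 0.955 in limma). Leaving out WT replicate 1 gave −0.13, and leaving out cKO replicate 2 gave −0.16.

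Ratios within a library do not depend on scaling between libraries. The Cdh1 to Cdh2 ratio was 0.694, 0.698 and 0.829 in cKO and 0.478, 0.431 and 0.835 in WT. The cKO values were higher than those of WT replicates 1 and 2 and lower than that of WT replicate 3, with a difference of 0.41 on the log2 scale (exact two-sided permutation p = 0.4, where 0.1 is the smallest possible with 3 against 3). It was 0.70 without WT replicate 3, 0.22 without WT replicate 2 and 0.30 to 0.45 without any other single library. The Gja1 to Gja4 ratio was 3.07, 2.70 and 2.02 in cKO and 2.54, 2.74 and 1.45 in WT, a log2 difference of 0.24 (exact permutation p = 0.6) that became −0.05 without WT replicate 3. The Gja1 to Tjp1 ratio was 1.29, 1.23 and 1.00 in cKO and 1.09, 1.22 and 0.788 in WT, a log2 difference of 0.20 (exact permutation p = 0.5) that became 0.02 without WT replicate 3. Among the WT libraries, replicate 3 stood furthest from the others in each of these ratios. Adjusted over the 3 ratios by Benjamini-Hochberg, the exact permutation p was 0.6 for each.

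Gene structure differed between the families. In GENCODE M21 the transcript with the longest coding sequence had 16 coding exons in Cdh1, Cdh2 and Cdh3, 17 in Ctnna1 and 28 in Tjp1, and a single coding exon in Gja1, Gja4 and Gjc1. With noncoding exons counted, the same transcripts had 2 exons in Gja1, 2 in Gja4 and 3 in Gjc1, so these connexin genes contain introns too. Log2 fold changes were −0.25 to 0.22 for the 5 genes with many coding exons and −0.28 to −0.01 for the 3 with a single coding exon. Gene totals do not show which exons were joined, so splicing itself was not measured.

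The 3 connexin members made up nearly all connexin RNA. Over 20 connexin genes, Gja1, Gja4 and Gjc1 together held 90.1% to 92.4% of the summed FPKM in cKO and 89.5% to 92.3% in WT. Gja1 alone held 57.1%, 52.7% and 50.4% in cKO and 54.1%, 55.4% and 44.2% in WT. Gja4 held 18.6%, 19.5% and 24.9% in cKO and 21.3%, 20.2% and 30.4% in WT, the highest share being that of WT replicate 3. Of the 17 other connexin genes 14 did not reach 1 FPKM in any library, and 2 were tested. Of these 2, 0 rose and 0 fell, where 0 of all 14589 tested genes did either.

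Cdh1, Cdh2 and Cdh3 shared the cadherin RNA with vascular and stromal cadherins. They held 44.6% to 50.4% of the summed FPKM of 23 cadherin genes in cKO and 23.1%, 47.1% and 58.0% in WT. The lowest share belonged to WT replicate 1. In that library Cdh5, the cadherin of endothelium, was at 37.2 FPKM, against 5.65 to 8.33 FPKM in cKO and 7.59 and 5.38 FPKM in the other two WT libraries. Cdh11, a mesenchymal cadherin, was at 35.9 FPKM there, against 8.76 to 14.6 FPKM in cKO and 15.1 and 8.03 FPKM in the other two. Of 20 other cadherins 5 were tested, 0 rose and 0 fell, where 0 of all 14589 tested genes did either. Their median log2 fold change was −0.11. Cdh16, a cadherin of renal and mesonephric tubules that also stands in the tubal and mesonephric marker list, was at 1.75, 0.985 and 1.87 FPKM in cKO and 1.02, 0.660 and 0.494 FPKM in WT. Its log2 fold change was 0.55 (unadjusted p = 0.0360 and adjusted p = 0.955 in limma). Cdh16 reached 1 FPKM only in cKO replicates 1 and 3 and WT replicate 1, so its level in cKO also decided that it was tested. Cdh23, a cadherin of hair cell links, was at 2.76 ± 0.459 FPKM in cKO and 3.17 ± 1.27 FPKM in WT (SD, n = 3 each).

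**Figure D3:**
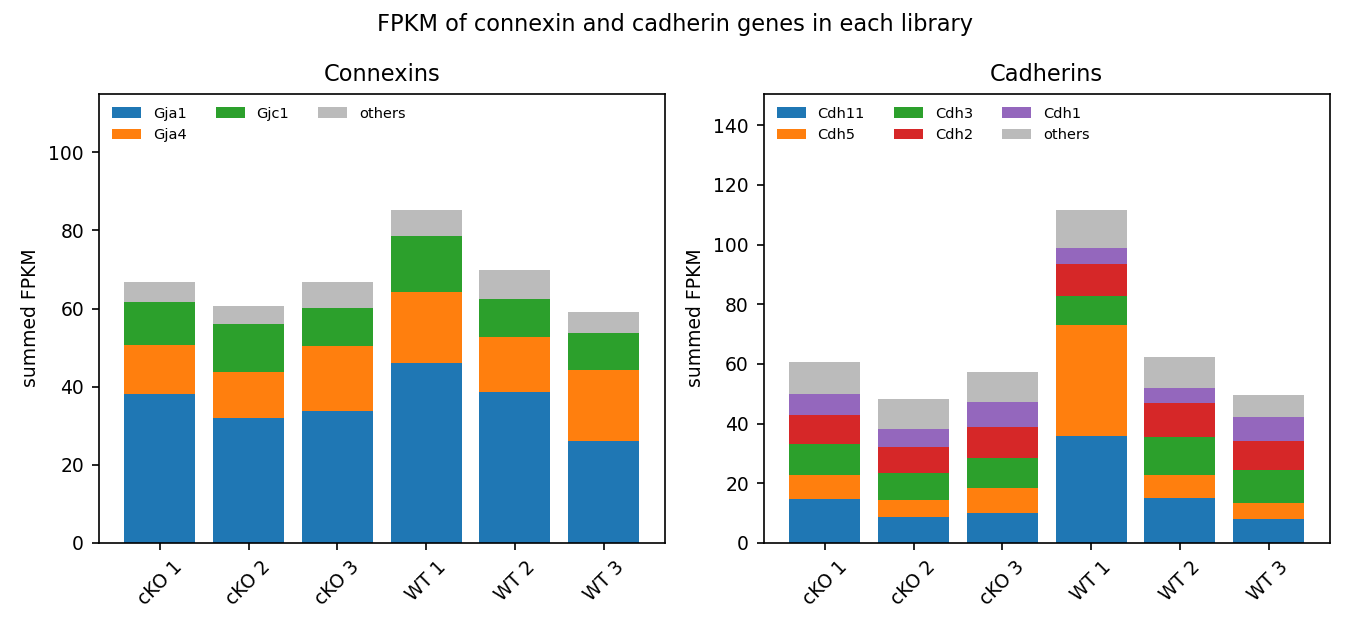
Summed FPKM (vertical axis) of 20 connexin genes (left) and 23 cadherin genes (right) in each library, cKO left of WT, with the leading genes in colour and the rest in grey. Gja1, Gja4 and Gjc1 fill at least 89.5% of each connexin bar, and WT replicate 1 has the tallest cadherin bar, in which Cdh5 and Cdh11 are largest.

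Other adherens junction genes were tested in the same fit. Of 19 catenins, nectins and linkers 17 were tested, with a median log2 fold change of −0.09. Of these 0 rose and 0 fell, where 0 of all 14589 tested genes did either. Groups did not overlap for 2 of the 17, both lower in cKO. Of all tested genes, 7.88% had groups that did not overlap in either direction, and 3.67% did so with cKO lower. Afdn encodes afadin, which ties nectins to actin, and was at 34.4, 33.6 and 36.5 FPKM in cKO and 42.9, 40.4 and 41.4 FPKM in WT. Its log2 fold change was −0.25 (unadjusted p = 0.0214 and adjusted p = 0.955 in limma). Vcl encodes vinculin, which alpha-catenin recruits under tension, and was at 44.2, 41.1 and 45.5 FPKM in cKO and 50.7, 49.3 and 49.2 FPKM in WT (log2 fold change −0.19, adjusted p = 0.955 in limma). Ajuba, a LIM protein that binds alpha-catenin, was at 31.4 ± 2.80 FPKM in cKO and 26.9 ± 4.18 FPKM in WT, and Pdzd11, a partner of Plekha7 at nectins, at 16.8 ± 1.97 FPKM in cKO and 14.1 ± 0.705 FPKM in WT (SD, n = 3 each). Ctnnb1 encodes beta-catenin and was picked with its values in view. It averaged 242.3 ± 16.1 FPKM in cKO and 255.2 ± 18.8 FPKM in WT (SD, n = 3 each), above Ctnna1 in every library.

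Among 29 tight junction genes 24 were tested, with a median log2 fold change of −0.03. Of these 0 rose and 0 fell, where 0 of all 14589 tested genes did either. Groups did not overlap for 2 of the 24, both higher in cKO. Of all tested genes, 7.88% had groups that did not overlap in either direction, and 4.2% did so with cKO higher. Cldn3, a claudin that is also in the tubal and mesonephric list, was at 4.15, 2.63 and 3.38 FPKM in cKO and 0.591, 0.866 and 1.09 FPKM in WT. Its log2 fold change was 1.24 (unadjusted p = 0.0003025 and adjusted p = 0.883 in limma). Cldn7, another epithelial claudin, was at 1.82, 2.54 and 2.90 FPKM in cKO and 0.948, 0.753 and 1.44 FPKM in WT. The log2 fold change of Cldn7 was 0.74 (unadjusted p = 0.00706 and adjusted p = 0.955 in limma). Both claudins reached 1 FPKM in all cKO libraries and in WT replicate 3 only of the WT libraries, so their level in cKO also decided that they were tested. The polarity scaffold Pard3 was at 20.96 ± 2.66 FPKM in cKO and 24.7 ± 3.41 FPKM in WT, and Mpdz, a PDZ scaffold, at 13.1 ± 0.976 FPKM in cKO and 15.1 ± 1.99 FPKM in WT (SD, n = 3 each).

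**Figure D4:**
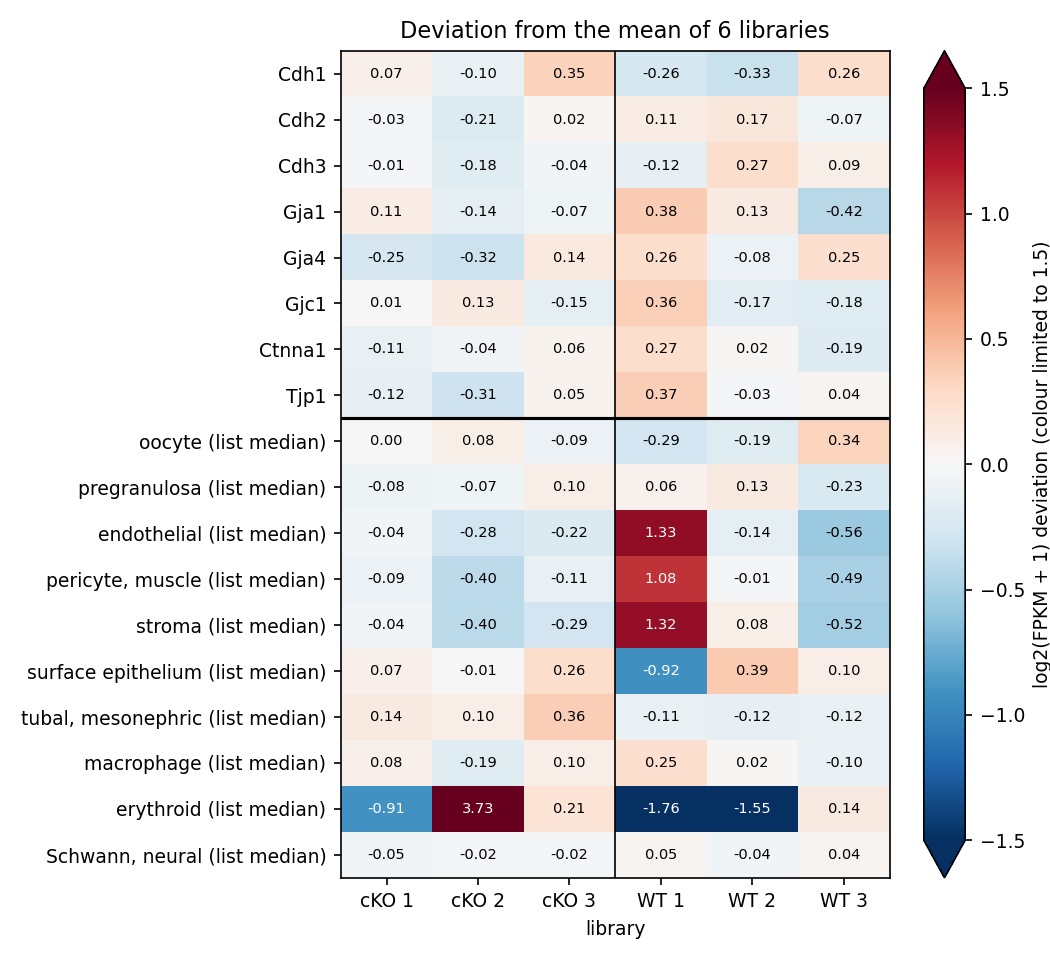
Deviation of log2(FPKM + 1) from the mean of the 6 libraries (colour and printed value) for the 8 junction genes (upper rows) and the median deviation of each marker list (lower rows), cKO libraries left of WT libraries. WT replicate 1 is high for Gja1, Gja4, Gjc1, Ctnna1 and Tjp1, as it is for endothelial (1.33), stroma (1.32) and pericyte and muscle markers (1.08). Cdh1 (−0.26) and surface epithelium markers (−0.92) are low there. In WT replicate 2 they part, with Cdh1 at its lowest (−0.33) and surface epithelium markers at their highest (0.39). Oocyte markers are at −0.29, −0.19 and 0.34 in WT replicates 1 to 3, with Cdh1 at −0.26, −0.33 and 0.26. In cKO replicates 1 to 3 oocyte markers are at 0.002, 0.08 and −0.09, with Cdh1 at 0.07, −0.10 and 0.35.

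The profiles of the 8 genes over libraries were not alike. WT replicate 1 was the highest library for 5 of them (Gja1, Gja4, Gjc1, Ctnna1 and Tjp1), WT replicate 2 for Cdh2 and Cdh3 and cKO replicate 3 for Cdh1. The lowest library was cKO replicate 2 for 4 genes (Cdh2, Cdh3, Gja4 and Tjp1), WT replicate 3 for 3 (Gja1, Gjc1 and Ctnna1) and WT replicate 2 for Cdh1. Genes of like pattern were taken as those with the highest Pearson correlation of log2(FPKM + 1) over the 6 libraries, among 8841 other protein-coding genes with a mean of at least 5 FPKM. They are a description over 6 points from the same libraries, in which between 28 genes (for Cdh3) and 441 genes (for Tjp1) exceeded 0.9. The closest were Fnta, Npc1 and Kpna4 for Cdh1 (0.971 to 0.983), Cntln, Rsf1 and Fras1 for Cdh2 (0.987 to 0.990) and Zkscan8, Prkdc and B3gnt7 for Cdh3 (0.966 to 0.978). For the connexins they were Tspan6, Kank4 and Bin1 for Gja1 (0.996 to 0.998), Gak, Sgpp1 and Sf3b2 for Gja4 (0.994 to 0.997) and Prnp, Nptn and Tspan3 for Gjc1 (0.989 to 0.996). For Ctnna1 they were Nectin1, Mdfic and Sec14l1 (0.991 to 0.998), of which Nectin1 is itself an adherens junction gene of the list above, and for Tjp1 they were Rptor, Acacb and Tln2 (0.995 to 0.998).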

How the data were processed

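RNA from mouse ovaries at 1 dpp was sequenced in 6 libraries, 3 cKO and 3 WT, grouped by their labels. The authors deposited FPKM per gene model. The submitters' processing notes name HISAT2 2.0.5, mm10 and GRCm39. The file's coordinates are GRCm39. The sources used here give no counter, annotation release or strand setting, so reads of Ctnna1 and its opposite-strand neighbours may not be separable. Gene lengths were deposited with the values, and reads recovered from both came out whole (within 0.05 of a read) for 100% of values, so 1 read in a gene of 1 kb is worth 0.0512 to 0.0594 FPKM. Replicate pairs differed by more than sampling noise (chi-square per degree of freedom 12.0 to 59.6).

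Genes at 1 FPKM or more in at least 3 of 6 libraries were tested with limma 3.58.1 in R 4.3.3 (lmFit, eBayes with trend) on log2(FPKM + 1), with Benjamini-Hochberg adjustment over all 14589 genes. Fold changes on that scale understate those of low genes. Ratios between genes were tested by exact permutation in scipy 1.17.1. The script was tested on simulated data, with the same spread for all genes and no difference in cell types between libraries. Such a test does not show what can be detected in the libraries used here. Alternatives were a pseudocount of 0.1, no filter, rescaling to TPM, median-of-ratios scaling, limma-voom on recovered reads, a replicate block and each library left out. The 8 genes and the gene lists were chosen with earlier results of these data known. Further genes named are the 4 with the smallest limma p of each junction list, markers of the cell type lists, and the 3 closest in pattern to each gene. Some genes that this rule names are not reported here. Promoter runs are from RefSeq (GRCm38.p6) and exon counts from GENCODE M21.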

Additional observations from a re-analysis of the deposited data

How the results depend on the processing

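No gene passed an adjusted p of 0.05 in limma under any alternative (0 of all tested genes each time), while the number at an unadjusted p under 0.05 was 443 in the reported fit, 379 with limma-voom on recovered reads, 1147 of 33311 genes with no filter, and 235 to 1063 with single libraries left out. Log2 fold changes with no filter and with the replicate block equal those of the reported fit by construction. The exact permutation p of the ratios cannot go below 0.1, so their side of the threshold could not change. Alternative values of log2 differences, with these fixed ones and those of Bcas2 included, numbered 132. Of them 126 kept their direction and their side of the threshold and 6 changed sign, the cause of which was not tested. Those were the Gja1 to Gja4 ratio difference without WT replicate 3 (−0.045), the log2 fold changes without WT replicate 1 of Gja1 (0.11), Gjc1 (0.17) and Ctnna1 (0.054), and that of Gjc1 with limma-voom (0.028) and without cKO replicate 3 (0.066). Over single libraries left out, the log2 fold change spanned −0.28 to 0.11 for Gja1, −0.097 to 0.17 for Gjc1 and −0.17 to 0.054 for Ctnna1. The ratio differences spanned 0.22 to 0.70 for Cdh1 to Cdh2, −0.045 to 0.41 for Gja1 to Gja4 and 0.02 to 0.33 for Gja1 to Tjp1. Rescaling to TPM put the median of all genes at −0.08 and that of the 8 genes at −0.19, so both moved together. With the replicate number as a block 0 genes were called and 432 had an unadjusted p under 0.05 in limma, while the ratio differences of 0.41, 0.24 and 0.20 cannot move in a balanced design. Their exact permutation p with the block was 0.5 for Cdh1 to Cdh2, 0.5 for Gja1 to Gja4 and 0.25 for Gja1 to Tjp1, where 0.25 is the smallest that 3 pairs allow. The labels do not say whether the numbers pair the libraries, and correlations over so few libraries cannot settle it. The correlations of deviations between same-numbered libraries were 0.22, 0.01 and −0.03. Of the WT libraries, cKO replicate 1 correlated best with WT replicate 1 (0.22) and cKO replicate 2 with WT replicate 3 (0.32). The median 95% interval of a gene spanned 0.35 to either side on the log2 scale, before any adjustment for the number of genes.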

Other observations

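Genes that control cadherins, and pannexins, which form channels related to those of connexins, were measured in the same libraries. Of 11 cadherin regulators all 11 were tested, with a median log2 fold change of −0.13. Of these 0 rose and 0 fell, where 0 of all 14589 tested genes did either. The transcription factors Zeb2 and Snai1, known to repress Cdh1, were highest in WT replicate 1. So were Zeb1, Snai2, Twist1 and Twist2 of the same list, and the stroma and endothelial marker sums. Cdh1 itself was lowest in WT replicate 2 (4.96 FPKM, against 5.26 FPKM in WT replicate 1), and a link was not tested. Zeb2 was at 3.14, 2.19 and 2.91 FPKM in cKO and 8.78, 3.30 and 2.87 FPKM in WT, and Snai1 at 3.09, 1.47 and 3.66 FPKM in cKO and 9.95, 2.98 and 2.24 FPKM in WT. Epcam, an epithelial adhesion protein, was at 40.7, 45.9 and 52.8 FPKM in cKO and 24.1, 49.4 and 44.2 FPKM in WT, lowest in WT replicate 1. Furin, a protease that matures cadherins, was at 29.7 ± 4.09 FPKM in cKO and 34.2 ± 5.30 FPKM in WT (SD, n = 3 each). Of 3 pannexin genes 1 was tested, Panx1, at 13.8, 13.3 and 13.2 FPKM in cKO and 19.3, 13.3 and 16.1 FPKM in WT (log2 fold change −0.24, adjusted p = 0.955 in limma).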
